A study of Mus musculus with 6 samples.

Results

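The genes described here are 8 markers of lymphatic endothelium, Prox1, Nr2f2, Flt4, Lyve1, Mmrn1, Reln, Stab1 and Stab2, out of 21999 genes counted in cultured lung microvascular endothelial cells (LMVEC) of mice. They were chosen by name as genes known to mark lymphatic endothelium. The question was how much RNA of these genes the cultures held and whether it differed between Ptprz1+/+ and Ptprz1-/- cells. Ptprz1 encodes protein tyrosine phosphatase receptor zeta 1.

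All 6 libraries came from total RNA of untreated LMVEC of SV129/B6 mice, 3 from Ptprz1+/+ animals and 3 from animals of a Ptprz1-/- line. Each library was a separate isolation, for which the lungs of 2 to 5 mice aged 3 to 8 weeks were pooled, so 1 library stands for several animals. The cells were first grown to confluence and then taken out with magnetic beads carrying an antibody to CD31, the product of the general endothelial gene Pecam1, and no lymphatic marker was used to select them.

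Between 14496881 and 17709663 reads were counted on genes per library. Values per library are given in the order of replicates 1, 2 and 3 of each genotype. Ptprz1 itself had 197, 1837 and 508 reads under the Ptprz1+/+ label, against 1138, 1320 and 895 under the Ptprz1-/- label. The targeted gene therefore did not separate the genotypes, and every direction given here rests on the labels. The libraries also differed in the levels of cell type markers. The level of Pecam1, in FPKM (fragments scaled to gene length and library size), was 25.6 in Ptprz1+/+ replicate 3, 9.84 in Ptprz1-/- replicate 3 and between 0.41 and 1.31 in the other 4 libraries, whereas the fibroblast collagen gene Col1a1 had between 397 and 977 FPKM in all 6.

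Lymphatic endothelial cells line the vessels that drain fluid and immune cells from tissues, the lung included. Their identity is set by the transcription factor PROX1, which acts together with COUP-TFII, the product of Nr2f2, in cells that leave the veins of the embryo. Their growth depends on the receptor VEGFR-3, the product of Flt4, and its ligands VEGF-C and VEGF-D, and their surface carries the hyaluronan receptor LYVE-1.

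The 8 genes spanned a wide range of levels. Averaged over the 6 libraries, Nr2f2 had 29.5 FPKM, Flt4 7.12, Stab1 4.36, Lyve1 3.18, Mmrn1 0.862, Stab2 0.384, Prox1 0.195 and Reln 0.156. Only part of this order held library by library. Nr2f2 was above Flt4 in 6 of 6 libraries, Flt4 above Stab1 in 5, Lyve1 above Mmrn1 in 5 and Mmrn1 above Stab2 in 6. The neighbours Stab1 and Lyve1 changed places in 3 of 6 libraries, as did Prox1 and Reln, and Stab2 was above Prox1 in only 2 of 6, so these neighbours did not differ beyond their spread.

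**Figure D1:**
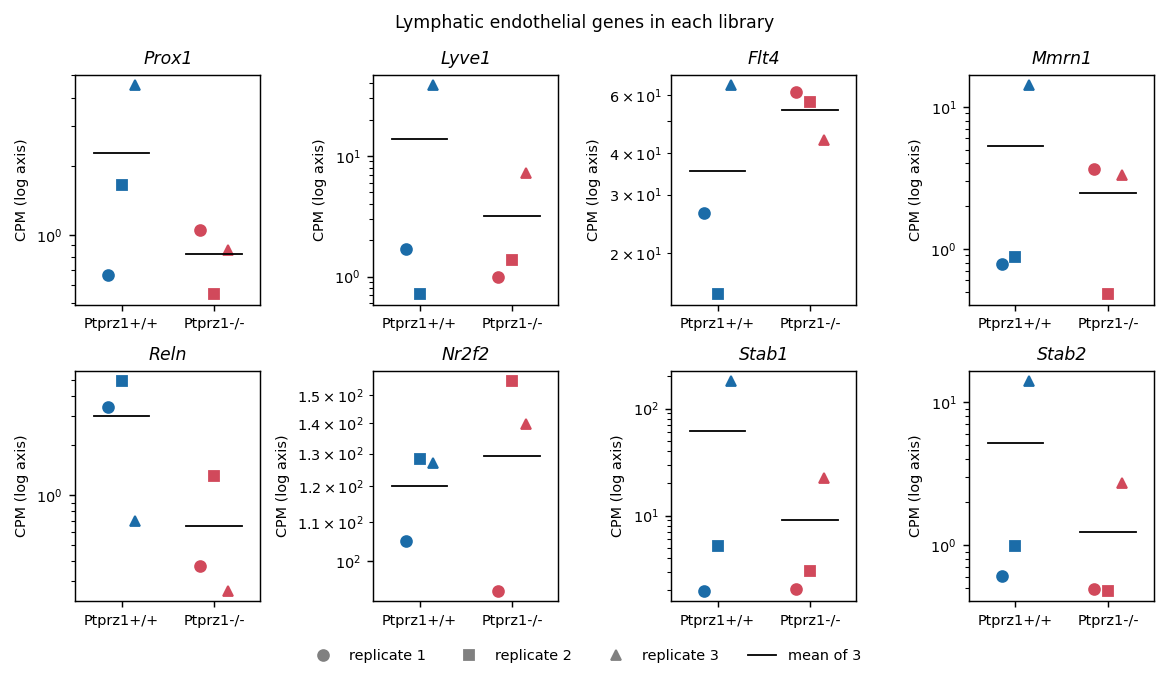
Level of the 8 lymphatic endothelial genes in each library, as CPM (log axis, with its own range in each panel), for Ptprz1+/+ (blue) and Ptprz1-/- (red) libraries, with symbols for the replicate number and a line for the mean of 3. In 6 of the 8 panels the highest point is Ptprz1+/+ replicate 3, and in all 8 panels the genotypes overlap.

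Between the genotypes, 0 of the 8 genes were called by the quasi-likelihood test of edgeR (adjusted p under 0.05), against 0 of all 13609 genes tested (0.0%), and 0 of the 8 had ranges that did not overlap, against 7.28% of all genes tested. Each of the 8 passed the filter on low counts, Reln largely through its Ptprz1+/+ libraries (57, 89 and 11 reads, against 6, 19 and 4). At an unadjusted p under 0.05 there was 1 gene, Reln, against 366 (2.69%) of all genes, and DESeq2's Wald test, which gave an adjusted p to 4 of the 8 (Prox1, Nr2f2, Flt4 and Reln), called 0 of these 4 at an adjusted p under 0.05 and 31 genes (0.194%) of the 15972 to which it gave an adjusted p. The log2 fold change (Ptprz1-/- minus Ptprz1+/+) was above 0 for 2 genes and below 0 for 6, with a median of -1.77 beside -0.0047 over all genes tested. Without Ptprz1+/+ replicate 3 this median was 0.98, and without replicate 3 of both genotypes it was -0.022 over the 7 genes then tested. In bulk RNA, fewer cells of a type and less RNA per cell cannot be told apart.

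Prox1 (ENSMUSG00000010175; GRCm38 chr1:190118035-190170714, minus strand), the transcription factor that sets lymphatic identity, rested on few reads. It had 11, 30 and 72 reads in the Ptprz1+/+ and 17, 8 and 13 in the Ptprz1-/- libraries, or 0.664, 1.65 and 4.54 CPM (counts scaled to library size, without gene length) against 1.05, 0.549 and 0.859 CPM. Ptprz1+/+ replicates 2 and 3 were above all Ptprz1-/- libraries, but replicate 1 lay among them. The means were 2.29 ± 2.02 and 0.821 ± 0.255 CPM (SD, n = 3 each), with a log2 fold change of -1.46 (standard error (SE) 0.73, edgeR adjusted p = 1.00). Without Ptprz1+/+ replicate 3 it was -0.49. Without Ptprz1+/+ replicate 1 the groups no longer overlapped (log2 fold change -1.90, edgeR adjusted p = 0.80), as was so for 21.9% of all genes tested in that subset.

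Nr2f2 (ENSMUSG00000030551; chr7:70351946-70366735, minus strand), which encodes the nuclear receptor COUP-TFII of venous and lymphatic cells, was the most abundant of the 8 and the steadiest. The Ptprz1+/+ libraries had 105, 128 and 127 CPM and the Ptprz1-/- libraries had 93.1, 155 and 140 CPM. The lowest and the highest library were both Ptprz1-/-, so the Ptprz1+/+ range lay inside the other. The highest library exceeded the lowest by 1.66-fold, and the log2 fold change was 0.11 (SE 0.21, edgeR adjusted p = 1.00). It was -0.046 without Ptprz1-/- replicate 2. Without Ptprz1-/- replicate 1, the other Ptprz1-/- libraries were above all Ptprz1+/+ libraries (log2 fold change 0.30), as 15.6% of all genes tested were apart in that subset. Over the 6 libraries Pecam1 ran from 1.36 to 91.0 CPM. Which cells of the cultures made the Nr2f2 RNA was not tested.

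Flt4 (ENSMUSG00000020357; chr11:49609263-49652739, plus strand), the receptor for VEGF-C and VEGF-D, had 26.5, 15.0 and 64.4 CPM in the Ptprz1+/+ libraries. In the libraries labelled Ptprz1-/- it had 61.3, 57.4 and 44.1 CPM. All Ptprz1-/- libraries were above Ptprz1+/+ replicates 1 and 2, and below replicate 3, the library with most Pecam1. The means were 35.3 ± 25.9 and 54.2 ± 9.03 CPM (SD, n = 3 each), and the log2 fold change was 0.62 (SE 0.51, edgeR adjusted p = 1.00). Without Ptprz1+/+ replicate 3, the groups separated with a log2 fold change of 1.39 (unadjusted p = 0.0045, edgeR adjusted p = 0.99), where 15.9% of all genes tested did not overlap. Without replicate 3 of both genotypes, Flt4 (1.52) and Reln (-2.31) were the 2 without overlap of the 7 genes still tested, beside 26.5% of all genes tested.

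Lyve1 (ENSMUSG00000030787; chr7:110850607-110862953, minus strand), the hyaluronan receptor of lymphatic endothelium, which some tissue macrophages carry as well, was read mostly in replicate 3 of each genotype. The Ptprz1+/+ libraries had 1.69, 0.715 and 38.8 CPM, and the Ptprz1-/- libraries had 0.992, 1.37 and 7.20 CPM. Ptprz1+/+ replicate 3 stood 5.39-fold above the next library, Ptprz1-/- replicate 3, and the other 4 libraries held between 13 and 28 counts. The log2 fold change was -2.10 (SE 1.55, edgeR adjusted p = 1.00). Its direction came from 1 library, since it was 1.40 without Ptprz1+/+ replicate 3. Without replicate 3 of both genotypes it was -0.022.

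Of the secreted proteins, Mmrn1 (ENSMUSG00000054641; chr6:60924976-60989378, plus strand) encodes multimerin 1, an adhesive glycoprotein of platelets and endothelium, and lies on the chromosome of Ptprz1 at a distance of 37.9 Mb. It had 0.785, 0.880 and 14.3 CPM in the Ptprz1+/+ libraries, and 3.66, 0.480 and 3.30 CPM in the Ptprz1-/- libraries. Ptprz1+/+ replicate 3 was again the highest, followed by Ptprz1-/- replicates 1 and 3 at nearly the same level. The log2 fold change was -1.09 (SE 1.27, edgeR adjusted p = 1.00), and 1.57 without Ptprz1+/+ replicate 3.

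Reln (ENSMUSG00000042453; chr5:21884454-22344702, minus strand) encodes reelin, an extracellular matrix protein best known from neuronal migration and also made by lymphatic endothelium. It ran against the other low genes. It had 57, 89 and 11 reads in the Ptprz1+/+ and 6, 19 and 4 in the Ptprz1-/- libraries, or 3.44, 4.89 and 0.694 CPM against 0.372, 1.30 and 0.264 CPM. Within each genotype replicate 2 was the highest library, and replicate 3, which had the most Lyve1, was the lowest. The single overlap between the genotypes came from Ptprz1+/+ replicate 3, which lay below Ptprz1-/- replicate 2. The mean was 3.01 ± 2.13 CPM in Ptprz1+/+ and 0.647 ± 0.572 CPM in Ptprz1-/- libraries (SD, n = 3 each), with a log2 fold change of -2.22 (SE 0.88, unadjusted p = 0.043, edgeR adjusted p = 1.00). By exact permutation of its CPM, two-sided, p was 0.20, where 3 libraries against 3 cannot go below 0.10. Whichever library was left out, its log2 fold change lay between -3.21 and -1.67, and the groups no longer overlapped without Ptprz1+/+ replicate 3 (-2.68) or without Ptprz1-/- replicate 2 (-3.21), subsets in which 15.9% and 13.8% of all genes tested did not overlap. By edgeR's quasi-likelihood test its unadjusted p was 0.090 without Ptprz1+/+ replicate 1 and 0.13 without Ptprz1+/+ replicate 2. It was 0.12 without Ptprz1-/- replicate 1 and 0.11 without Ptprz1-/- replicate 3, but 0.011 and 0.020 in the 2 subsets without overlap.

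The stabilins are large scavenger receptors, found on lymphatic and sinusoidal endothelium, and Stab1 on some macrophages too. Stab1 (ENSMUSG00000042286; chr14:31139013-31168641, minus strand) had 1.99, 5.17 and 179 CPM in the Ptprz1+/+ libraries, and 2.05, 3.02 and 22.5 CPM in the Ptprz1-/- libraries. This was the widest range of the 8 genes, 90.0-fold between the highest and the lowest library, with replicate 3 the highest of each genotype. Stab2 (ENSMUSG00000035459; chr10:86841198-87008025, minus strand) had 0.604, 0.989 and 14.0 CPM in the Ptprz1+/+ libraries, and 0.496, 0.480 and 2.71 CPM in the Ptprz1-/- libraries. The order of the libraries was close to that of Stab1, with replicate 3 the highest of each genotype and the other 4 libraries at 7 to 18 counts. The log2 fold changes were -2.76 for Stab1 (SE 1.78) and -2.07 for Stab2 (SE 1.35), with edgeR adjusted p = 1.00 for both. Without Ptprz1+/+ replicate 3 they were 1.35 and 0.62, and without Ptprz1-/- replicate 3 the ranges of Stab2 did not overlap (-3.40, edgeR adjusted p = 0.99), as for 17.4% of all genes tested in that subset. Without replicate 3 of both genotypes the log2 fold change of Stab1 was -0.50, and Stab2 was not tested.

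**Figure D2:**
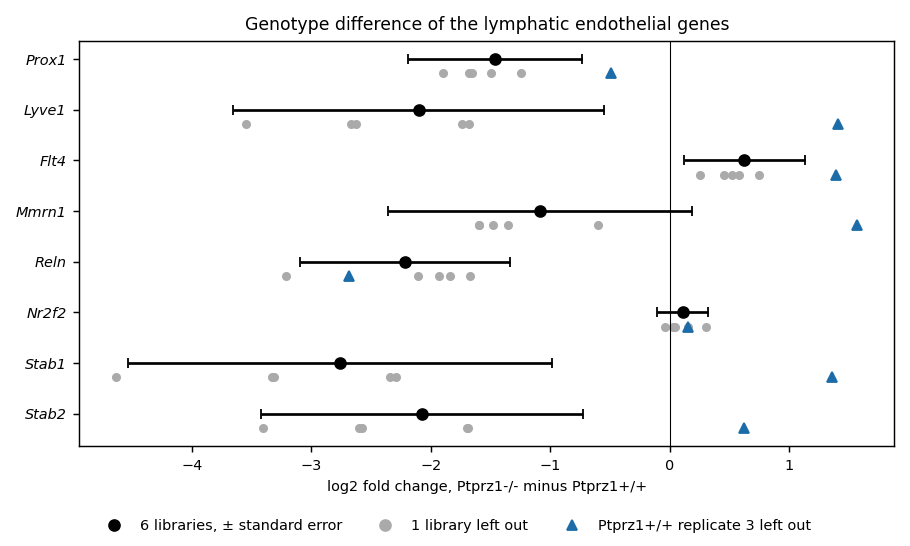
Log2 fold change (Ptprz1-/- minus Ptprz1+/+, horizontal axis) of the 8 lymphatic endothelial genes with all 6 libraries (black, with the standard error), with each library left out in turn (grey) and with Ptprz1+/+ replicate 3 left out (blue triangle). The triangles of Lyve1, Mmrn1, Stab1 and Stab2 lie above 0 at 1.40, 1.57, 1.35 and 0.62, while Reln stays below 0 throughout.

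Annotated neighbours overlap exons of some of these genes, and could change their counts only if strand was not used. On the opposite strand, exons of Nt5dc2 share 112 bases with Stab1, and Nt5dc2 had between 371 and 1056 counts per library. Shared exonic bases with antisense genes were 133 for Prox1, 643 for Nr2f2, 141 for Stab2 and 246 for Reln. The neighbour of Stab2, Gm16268, had 0 to 4 counts, and those of Prox1, Nr2f2 and Reln were not among the genes counted. The use of strand in counting is not given in the sources used here, so reads of such stretches cannot be told apart.

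The sequence before the start of the gene is shown for the stabilins and for Nr2f2, which moved least. The stabilins had the same highest and second highest library, as did Pecam1 and Cdh5. A RefSeq promoter entry was matched for 7 of the 8 genes, Lyve1 having none, that of Flt4 lies in an annotated exon, and that of Mmrn1 lies inside the annotated gene. Capitals mark GGAA, the core letters of ETS factor sites, and AGGTCA, a site of nuclear receptors, on either strand, so that a match on the opposite strand appears as its reverse complement, with no overlap between these matches. The letters ACAAT, the core of SOX factor sites, and AGATAA, a run bound by the GATA factor family, were searched as well and were not found in these 3 stretches. The sequences are 5′ to 3′ on the strand of the gene, in GRCm38.p6, at chr14:31168642-31168891 for Stab1, chr10:87008026-87008192 for Stab2 and chr7:70366747-70366996 for Nr2f2, all on the minus strand.
Stab1: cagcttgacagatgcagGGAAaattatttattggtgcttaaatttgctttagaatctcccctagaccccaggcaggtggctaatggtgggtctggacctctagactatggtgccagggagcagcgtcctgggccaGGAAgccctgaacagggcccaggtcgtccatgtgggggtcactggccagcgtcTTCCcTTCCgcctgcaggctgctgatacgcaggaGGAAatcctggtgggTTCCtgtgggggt
Stab2: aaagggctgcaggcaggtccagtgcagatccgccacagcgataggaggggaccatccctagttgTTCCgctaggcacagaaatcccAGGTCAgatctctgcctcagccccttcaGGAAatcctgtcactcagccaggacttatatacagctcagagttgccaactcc
Nr2f2: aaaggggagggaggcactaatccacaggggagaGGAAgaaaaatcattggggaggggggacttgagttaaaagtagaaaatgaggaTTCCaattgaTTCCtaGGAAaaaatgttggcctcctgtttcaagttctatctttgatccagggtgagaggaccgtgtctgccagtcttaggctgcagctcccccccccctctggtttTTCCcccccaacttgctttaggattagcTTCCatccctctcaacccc

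The promoter windows of 250 bases held 6 matches to GGAA for Stab1, 6 for Nr2f2 and 6 for Stab2. The Stab2 window has 83 bases in annotated exons of the gene, and only 2 of its matches are in the 167 bases shown. The share of all 32851 windows of 250 bases with at least 6 matches was 8.69%, and 93.4% held at least 1, with a median of 3. Of the other genes, Mmrn1 had 9 matches, Flt4 and Reln 2 each, and the windows of Prox1 2 and 5. AGGTCA occurred 1 time, in the Stab2 window, and in 14.0% of all windows. ACAAT was in 27.7% and AGATAA in 9.99% of all windows. A match is a run of letters and not a measured binding site.

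The 8 genes were then set against general endothelial genes of the same library. All 16 genes of the pan-endothelial list had their highest level in Ptprz1+/+ replicate 3, and 12 of the 16 their second highest in Ptprz1-/- replicate 3. The log2 fold change was below 0 for 16 of 16, with a median of -1.28, and 0 of 16 passed the adjusted threshold of edgeR's quasi-likelihood test. Without Ptprz1+/+ replicate 3 the median was 1.27. Without replicate 3 of both genotypes it was -0.43 over the genes of the list still tested. Pecam1 had 3.81, 4.40 and 91.0 CPM in the Ptprz1+/+ libraries, and 1.36, 1.51 and 32.4 CPM in the Ptprz1-/- libraries. Cdh5, the endothelial cadherin, ran in parallel with 8.70, 14.3 and 199 CPM and 3.60, 7.41 and 61.3 CPM. Lyve1, Stab1 and Stab2 thus had their 2 highest libraries where Pecam1 and Cdh5 had theirs, Mmrn1, Prox1 and Flt4 shared only the highest, and Nr2f2 and Reln had their highest library elsewhere.

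**Figure D3:**
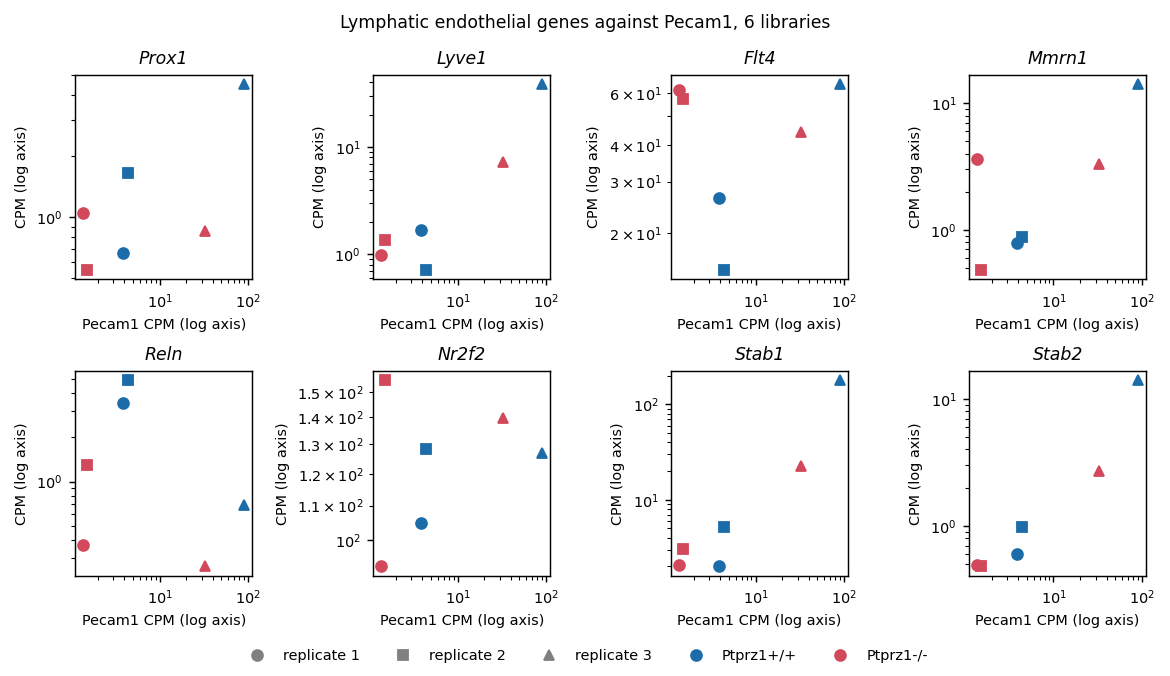
CPM of each lymphatic endothelial gene (vertical, log axis) against CPM of Pecam1 (horizontal, log axis) in the 6 libraries, with colours for the genotype and symbols for the replicate number. Lyve1, Stab1 and Stab2 are highest in the 2 libraries with most Pecam1 (91.0 and 32.4 CPM), while Nr2f2 stays between 93.1 and 155 CPM and Reln is low in both.

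Per gene length, the ratios to Pecam1 and Cdh5 differed from gene to gene. The FPKM of Nr2f2 was above that of Pecam1 in 6 of 6 libraries, by a factor of 1.14 in Ptprz1+/+ replicate 3 and of 83.7 in Ptprz1-/- replicate 2. Flt4 exceeded Pecam1 in 4 of 6 libraries, with 24.7 times its FPKM in Ptprz1-/- replicate 1 and 0.389 times in Ptprz1+/+ replicate 3. The ratio of Stab2 to Cdh5, by contrast, stayed between 0.0214 and 0.0668 while Cdh5 itself moved by 55.2-fold in CPM. Other ratios to Cdh5 ranged more widely, from 0.114 to 0.450 for Stab1, 0.0762 to 0.422 for Lyve1 and 0.0480 to 0.906 for Mmrn1. Mmrn1 was below Pecam1 in FPKM in 5 libraries and at 2.06 times in Ptprz1-/- replicate 1.

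Counted against the summed counts of the 16 pan-endothelial genes, Flt4 made 18.0%, 14.4% and 8.48% in the Ptprz1+/+ libraries and 62.3%, 39.7% and 15.2% in the Ptprz1-/- libraries. Only Ptprz1-/- replicate 3 lay within the Ptprz1+/+ range, with p = 0.20 by exact permutation, two-sided. The means were 13.6 ± 4.83% and 39.1 ± 23.5% (SD, n = 3 each), a ratio of 2.86. Against Pecam1 and Cdh5 alone the means were 105 ± 97.0% and 642 ± 594%, a ratio of 6.13. The genotypes overlapped there as well (p = 0.30 by exact permutation, two-sided). For the other 7 genes the exact permutation p of the share of the pan-endothelial sum was between 0.30 and 0.80, and 0 of the 8 genes had shares that did not overlap. Eng, which encodes the TGF-beta co-receptor endoglin and is made by fibroblasts too, held between 18.7% and 79.7% of the pan-endothelial sum, so the choice of the denominator mattered. Against Pecam1 and Cdh5 the ratio of means (Ptprz1-/- over Ptprz1+/+) went from 0.663 to 1.81 for Prox1, from 0.640 to 1.40 for Lyve1 and from 0.553 to 1.22 for Stab2.

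Against Pecam1 and Cdh5, Stab2 made 4.83%, 5.28% and 4.83% of the count in the Ptprz1+/+ libraries, and 10.0%, 5.38% and 2.89% in the Ptprz1-/- libraries. The Ptprz1+/+ libraries were nearly equal although their Stab2 counts were 10, 18 and 222, but counts as low as 10 and 18 carry a large counting error. The unequal Ptprz1-/- shares rested on 8, 7 and 41 Stab2 counts. Mmrn1 made 6.28%, 4.69% and 4.92%, and then 73.8%, 5.38% and 3.52%. A single library, Ptprz1-/- replicate 1, stood apart, with 59 Mmrn1 counts beside 22 of Pecam1. With the log2 of the pan-endothelial sum as a covariate beside genotype, the log2 fold change became -0.43 for Stab1, -0.49 for Stab2, 0.22 for Lyve1, 0.83 for Mmrn1 and -0.92 for Prox1, but 1.15 for Flt4 and -2.33 for Reln, and 0 of the 8 passed the adjusted threshold of edgeR's quasi-likelihood test. The median over the 8 genes was then -0.15.

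Other cell types of the cultures were read in the same way. The summed CPM of the 8 genes was 141, 158 and 443 in the Ptprz1+/+ and 163, 220 and 220 in the Ptprz1-/- libraries. That of the 10 fibroblast genes was between 10956 and 27340, with the highest sum in Ptprz1-/- replicate 3. Mesothelial genes summed to 1383 CPM in Ptprz1-/- replicate 1, the library with the high Mmrn1 share, and to between 56.3 and 281 CPM in the other 5. Their part in the Mmrn1 value was not tested. Smooth muscle and pericyte genes summed to 4443 CPM in Ptprz1+/+ replicate 1 and 4623 CPM in Ptprz1-/- replicate 1, against 872 to 1998 CPM in the other 4. Epithelial genes summed to between 1.55 and 2.84 CPM. The log2 fold change was above 0 for 7 of 7 mesothelial genes tested (median 2.26), with 0 called by edgeR, and this median fell to 0.28 without Ptprz1-/- replicate 1. For smooth muscle and pericyte genes it was above 0 for 6 of 10 (median 0.21), with 0 called by edgeR. That median had no stable direction, since it was -0.30 without Ptprz1-/- replicate 1, -0.11 without Ptprz1+/+ replicate 2 and 0.71 without Ptprz1+/+ replicate 1.

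Nr2f2 also marks veins, so venous and arterial genes were read beside it. Of 7 venous genes tested, 5 had a log2 fold change below 0 (median -0.29), and of 8 arterial genes 5 did (median -0.20), with 0 called by edgeR on either list. Without Ptprz1+/+ replicate 3 the venous median was -0.014 and the arterial median 0.37. Selp, the gene of the venous adhesion protein P-selectin, named here after its values were seen, had 6.95, 5.22 and 51.4 CPM in the Ptprz1+/+ and 1.61, 3.29 and 1.92 CPM in the Ptprz1-/- libraries. Its groups did not overlap, and Ptprz1+/+ replicate 3 was again the highest (log2 fold change -3.22, SE 0.98, edgeR adjusted p = 1.00), while DESeq2's Wald test called it.

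**Figure D4:**
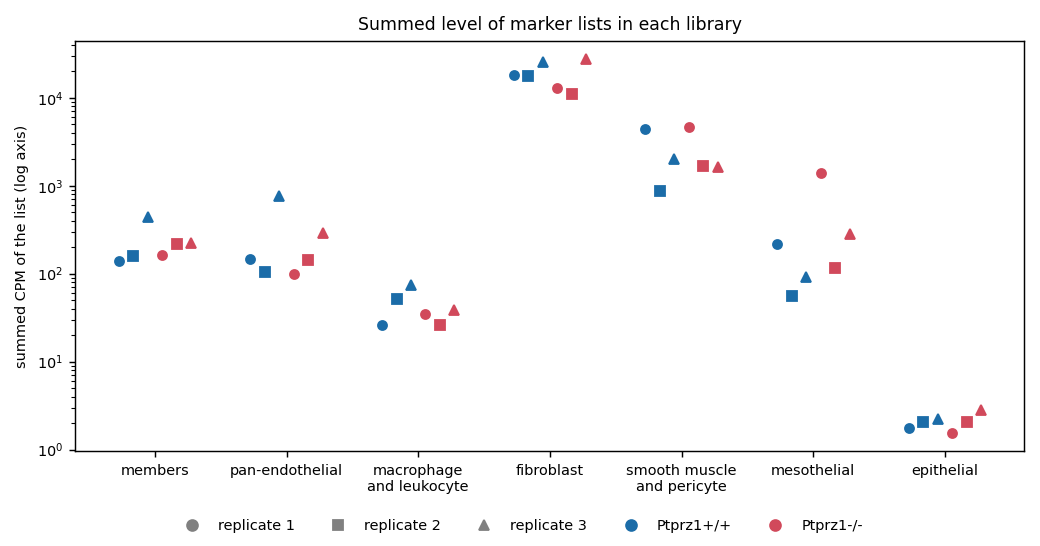
Summed CPM (log axis) of the 8 lymphatic endothelial genes and of 6 lists of cell type markers in each library, by genotype (colour) and replicate number (symbol). Fibroblast genes are at 10956 CPM or more in every library, the pan-endothelial sum is highest in Ptprz1+/+ replicate 3 (760 CPM), and mesothelial genes are highest in Ptprz1-/- replicate 1 (1383 CPM).

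Macrophages were checked because Lyve1 and Stab1 are also known from them. Of 14 macrophage and leukocyte genes in the table, 4 passed the filter, and the complement genes C1qa, C1qb and C1qc and the scavenger receptor Cd163 had at most 3 counts in any library. Ptprc, the pan-leukocyte gene, had 2, 7 and 7 reads in the Ptprz1+/+ and 9, 1 and 2 in the Ptprz1-/- libraries. The list summed to 26.3, 51.9 and 74.1 CPM in Ptprz1+/+ and 35.2, 25.8 and 38.2 CPM in the Ptprz1-/- libraries, most of it Lyz2, the lysozyme gene of myeloid cells, and Cd14. Csf1r, the receptor of the macrophage growth factor CSF1, had 3.14, 3.52 and 5.24 CPM against 1.55, 1.92 and 1.98 CPM, without overlap (log2 fold change -1.12, SE 0.32, edgeR adjusted p = 1.00). The list sum, Csf1r and Lyz2 (40.1 CPM) were highest in Ptprz1+/+ replicate 3, the library with the most Lyve1 and Stab1, and their part in those values was not tested.

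The other genes of the lymphatic pathway numbered 45 in the table, and 37 passed the filter on low counts. In edgeR's quasi-likelihood test 0 of the 37 passed the adjusted threshold in either direction, 4 had an unadjusted p under 0.05, and 3, all lower in Ptprz1-/- libraries, had ranges without overlap (3.73% of all genes tested were lower without overlap). The log2 fold change was above 0 for 7 and below 0 for 30, with a median of -0.39. It was -0.080 without Ptprz1+/+ replicate 3.

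Among the ligands of the Flt4 receptor, Vegfc, which encodes VEGF-C, had 28.6, 18.6 and 101 CPM in the Ptprz1+/+ libraries, and 13.0, 23.3 and 60.5 CPM in the Ptprz1-/- libraries. Figf, the older symbol of the VEGF-D gene, had 95.8, 40.1 and 547 CPM and then 25.4, 88.3 and 313 CPM. Both ligand genes were highest in replicate 3 of each genotype, and Figf had 89.5 FPKM on average over the 6 libraries, against 29.5 FPKM for Nr2f2. That mean was carried by replicate 3 of each genotype (258 and 160 FPKM), and in Ptprz1+/+ replicate 2 and Ptprz1-/- replicate 1 Nr2f2 was above Figf. The log2 fold changes, -0.61 for Vegfc (SE 0.79) and -0.68 for Figf (SE 1.17), lay within the spread between replicates.

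The proteins that process VEGF-C gave 1 gene without overlap. Adamts14, a protease of the family that cuts VEGF-C and procollagen, had 31.4, 23.4 and 29.7 CPM in the Ptprz1+/+ libraries, and 15.6, 9.68 and 20.7 CPM in the Ptprz1-/- libraries. Each Ptprz1-/- library was below each Ptprz1+/+ library (log2 fold change -0.88, SE 0.29, unadjusted p = 0.022, edgeR adjusted p = 1.00). Adamts3, the main VEGF-C protease, had between 2.24 and 16.8 CPM and Ccbe1, the cofactor of that cleavage, between 81.3 and 196 CPM, both with overlap of the genotypes.

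The receptors of these ligands were read next. Nrp2, which encodes the neuropilin that binds VEGF-C, had 113, 215 and 131 CPM in the Ptprz1+/+ and 174, 161 and 153 CPM in the Ptprz1-/- libraries, with a log2 fold change of 0.085 (SE 0.25). Kdr, the gene of VEGFR-2 and a relative of Flt4, had 3.99, 3.74 and 21.4 CPM and then 4.09, 1.30 and 7.07 CPM. The highest library of Kdr was Ptprz1+/+ replicate 3, as for Pecam1. Flt1, the gene of VEGFR-1, had its maximum there too, with 44.5 CPM against 2.23 to 19.4 CPM in the other 5 libraries. In FPKM averaged over the 6 libraries, Flt4 (7.12) was above Flt1 (2.06) and Kdr (1.16).

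Of the transcription factors, Sox18, which switches on Prox1 in the embryo, did not pass the filter, with 9, 6 and 201 reads in the Ptprz1+/+ and 4, 4 and 83 in the Ptprz1-/- libraries. Most of its reads were in replicate 3 of each genotype, the libraries with most Pecam1. Nfatc1, a factor of lymphatic valve formation, had 9.42, 13.0 and 16.0 CPM and then 8.06, 9.75 and 6.61 CPM (log2 fold change -0.65, SE 0.27, unadjusted p = 0.048, edgeR adjusted p = 1.00), with overlap. Foxc2, another valve factor, differed by 0.25 (SE 0.27) on the log2 scale and its relative Foxc1 by -0.047 (SE 0.29). Gata2 differed by -0.15 (SE 0.44).

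Pdpn, the gene of the lymphatic surface protein podoplanin, which fibroblasts and mesothelial cells carry too, was the most even of the surface genes. It had 204, 281 and 220 CPM in the Ptprz1+/+ and 202, 283 and 219 CPM in the Ptprz1-/- libraries, with a log2 fold change of -0.0019 (SE 0.20). At 129 FPKM on average it lay far above Prox1 and Lyve1. Thy1, an adhesion protein of lymphatic endothelium that is also a fibroblast marker, had 313, 234 and 240 CPM against 112, 182 and 141 CPM, without overlap (log2 fold change -0.86, SE 0.22, unadjusted p = 0.0075, edgeR adjusted p = 1.00). On the fibroblast list, which also holds Thy1, 9 of 10 genes had a log2 fold change below 0, with a median of -0.54, which lay between -0.82 and -0.29 with 1 library left out.

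The angiopoietin system shapes lymphatic vessels after birth. Tie1, an endothelial receptor of it, had 1.93, 1.81 and 65.5 CPM in Ptprz1+/+ and 0.806, 0.686 and 25.3 CPM in the Ptprz1-/- libraries. This is the pattern of Pecam1, and the ligand gene Angpt2 was highest in the same 2 libraries, with 87.0 and 52.6 CPM. Emilin1, a matrix glycoprotein of lymphatic anchoring filaments and a relative of Mmrn1, had 221, 569 and 233 CPM against 110, 137 and 200 CPM, without overlap (log2 fold change -1.19, SE 0.44, unadjusted p = 0.031, edgeR adjusted p = 1.00). The receptors of reelin, Vldlr and Lrp8, differed by 0.23 (SE 0.23) and 0.042 (SE 0.37), and Dab1, the adaptor that passes the reelin signal on, had 0 to 2 counts per library.

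**Figure D5:**
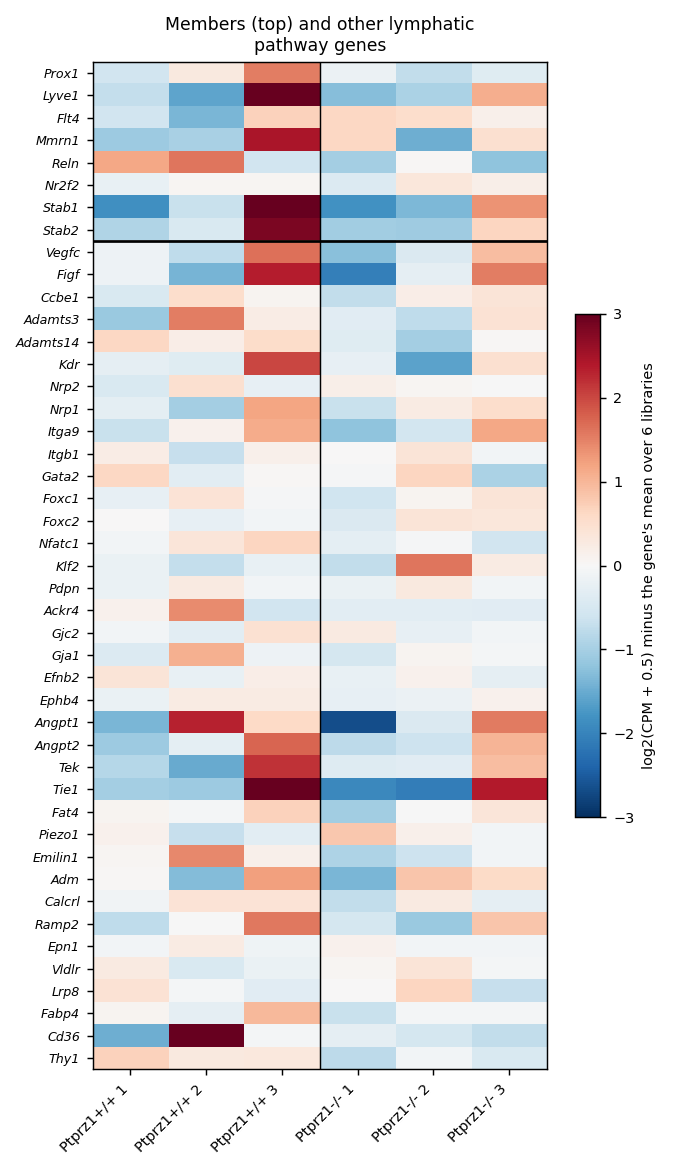
Log2 (CPM + 0.5) of each gene minus its mean over the 6 libraries (columns, 3 per genotype), for the 8 lymphatic endothelial genes (top rows) and the 37 other lymphatic pathway genes that passed the filter, with the colour scale ending at -3 and 3. Lyve1, Mmrn1, Stab1, Stab2, Figf, Tie1 and Tek share their highest library, Ptprz1+/+ replicate 3, while Pdpn, Nr2f2 and Epn1 are near 0 throughout.

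Relatives of the 8 genes did not move as one with them. Of 11 relatives that passed the filter, 5 had a log2 fold change above 0 and 6 below, and 0 passed the adjusted threshold of edgeR's quasi-likelihood test. Mmrn2, the endothelial multimerin, had 1.51, 0.605 and 17.8 CPM in Ptprz1+/+ and 0.620, 0.480 and 4.49 CPM in the Ptprz1-/- libraries, close to the pattern of Lyve1. Nr2f6, a relative of Nr2f2, had 27.4, 26.2 and 26.1 CPM against 30.5, 33.2 and 30.6 CPM, higher without overlap (3.55% of all genes tested were) by 0.24 on the log2 scale (SE 0.11, edgeR adjusted p = 1.00). Nr2f1, the closest relative of Nr2f2, differed by 0.0024 (SE 0.35), and Prox2 by 0.35 (SE 0.39).

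The genes most like each of the 8 were found by the smallest root mean square difference of log2 CPM, each gene centred on its own mean, over the 6 libraries and 13608 other genes. For Stab1 they were Klhl4 (0.53), Cdh5 (0.60) and Pecam1 (0.71), and for Stab2 Klhl4 (0.27), Mest (0.29) and Gimap6 (0.39). For Lyve1 they were Mmrn2 (0.43), Mest (0.50) and Sox17 (0.51). Endothelial genes thus stood among the nearest to the stabilins and Lyve1, and Stab2 was at rank 9 for Lyve1 and Stab1 at rank 20. Mmrn1 was most like Pdgfb (0.43), Nrros (0.55) and Esam (0.56), a group that includes the endothelial adhesion gene Esam, which was also high in Ptprz1-/- replicate 1.

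The remaining 4 genes had other neighbours. Prox1 was most like Lyz2 (0.20), Gm26782 (0.28) and Cmya5 (0.41), and ranked Pecam1 at 13329 of 13608. This distance also grows with how widely a gene moved (spread of centred log2 CPM 0.93 for Prox1, 2.30 for Stab1). A low rank is thus not by itself an unlike pattern. In the other direction, Prox1 stood at rank 74 for Mmrn1, 136 for Stab2, 204 for Stab1 and 358 for Lyve1. It stood between 11971 and 12566 for Flt4, Reln and Nr2f2. Flt4 was most like Dio3os (0.19), Gm9844 (0.19) and Gm6166 (0.23), Reln like Atp8b4 (0.51), Iqgap2 (0.51) and Slc6a17 (0.53), and Nr2f2 like Mocs1, Ndst1 and Atg7 (0.059 to 0.065). None of the 8 genes was among the 3 nearest of another. Many points share the same 6 libraries, so these distances describe the libraries and carry no test.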

How the data were processed

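RNA of 6 LMVEC libraries, 3 per genotype, was analysed, with groups and replicate numbers taken from the sample labels. The authors deposited one table with raw read counts for every gene in each library. The FPKM values deposited beside it were computed by the authors from those counts, the gene length and the library's total count. Per the submitters' processing notes, STAR, HTSeq, TopHat, DESeq2 and edgeR were used with GRCm38 (mm10); which of them made the table, their versions and the use of strand are not given in the sources used here. The authors' own comparison (group means, log2 fold change, p-value and adjusted p) and their 3 lists of called genes were not used.

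Counts were scaled by TMM, filtered with filterByExpr and fitted with genotype alone by the quasi-likelihood method of edgeR 4.0.16 (R 4.3.3). Benjamini-Hochberg adjustment ran over the 13609 genes tested, with a threshold of 0.05. Each adjusted p in the text comes from this test unless another tool is named. Standard errors are the log2 fold change without its sign, divided by the square root of F. CPM uses the TMM-scaled library size. Exact two-sided permutation tests of single values used scipy 1.17.1. FPKM was used to compare levels between genes and to describe Pecam1, Col1a1 and Figf per library, and in no test. It is scaled to the total count, without TMM. Whether the replicates share a culture day is not given, so p-values measure the spread between these isolations. No pair of libraries had identical counts (0 pairs).

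The 8 genes, the gene lists and the motifs were chosen with earlier results of these data known. The genes named are the 8 genes, genes of the lymphatic pathway list by role, relatives of the 8, leading genes of the other lists, Ptprz1 and the 3 genes most alike. Coordinates are from GENCODE M21 on GRCm38, which holds 98.9% of the gene identifiers, and promoter sequence is from RefSeq (GRCm38.p6). Library totals ran from 14496881 to 17709663 counts. A low count such as 4 to 19 for Reln in the Ptprz1-/- libraries carries a large counting error.

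The alternatives were DESeq2 1.42.0, limma 3.58.1 (voom), edgeR's likelihood ratio test, upper-quartile normalization, other filters on low counts, each library left out, omission of replicate 3 of both genotypes, a block for the replicate number, a pan-endothelial covariate and another denominator for shares. The functions were tested on simulated counts.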

Additional observations from a re-analysis of the deposited data

How the results depend on the processing

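Under all 15 alternatives to the test, 0 of those of the 8 genes that had an adjusted p passed the threshold. DESeq2 called 31 genes over the whole table, 1 of them (Selp) on the other lists, and edgeR's likelihood ratio test 17. DESeq2 gave no p for Lyve1, Mmrn1, Stab1 and Stab2. With at least 10 counts in every sample, 4 of the 8 genes were tested (Nr2f2, Flt4, Lyve1 and Stab1), so Reln was not. Other normalization, filters and tests turned no direction of the 8 genes, but limma voom gave smaller differences for Lyve1 (-0.68), Mmrn1 (-0.17), Stab1 (-1.19) and Stab2 (-1.16). The median of the epithelial genes turned from 0.58 to -1.25 with DESeq2 and to -1.16 without a filter. With libraries left out in turn, the genes without overlap numbered 0 to 2, those by share of the pan-endothelial sum 0 to 2, and the log2 fold changes ranged from -3.55 to 1.40 for Lyve1, -1.60 to 1.57 for Mmrn1, -0.046 to 0.30 for Nr2f2, -4.63 to 1.35 for Stab1 and -3.40 to 0.62 for Stab2; all but Nr2f2 turned without Ptprz1+/+ replicate 3. Without replicate 3 of both genotypes, Mmrn1 was 1.31, Lyve1 -0.022 and Stab1 -0.50, and 2 genes did not overlap. With the pan-endothelial covariate, Lyve1 was 0.22 and Mmrn1 0.83. The causes were not tested. Log2 CPM was then taken as deviations from each gene's mean within its genotype. In these deviations same-numbered libraries correlated at 0.45, -0.061 and 0.52 for replicates 1, 2 and 3. Libraries with different numbers correlated between -0.57 and 0.092. In these deviations, numbers 1 and 3 thus went together across the genotypes, and number 2 did not. The deviations of a genotype cancel for each gene, so these correlations are tied to each other. Whether the numbers pair the samples is not given in the sources used here. The main test therefore used genotype alone, with the replicate block as an alternative. With the replicate block 0 genes passed the adjusted threshold, with Lyve1 at -0.95, Mmrn1 at -0.36, Stab1 at -1.44, Stab2 at -1.40 and Reln at -2.20. At an unadjusted p under 0.05 in edgeR's quasi-likelihood test there were 690 genes with this block and 366 without it. Of the 8 genes there were 2 with it, Reln and Stab2, and 1 without it, Reln.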
